A study of Mus musculus with 24 samples.

Results

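Wnt pathway genes were followed here in the dentate gyrus, the hippocampal region in which new neurons are born throughout adult life. The set held 48 mouse genes, namely 18 Wnt ligands, 12 receptor genes (10 Frizzled genes with Lrp5 and Lrp6), 7 secreted inhibitors (Sfrp and Dkk genes) and 11 intracellular genes. Their CpGs were taken from the GENCODE M21 span of each gene and the 2 kb on either side of it, which gave 2519 of the 694379 CpGs in the table, with both strands of a CpG counted separately. At least 1 CpG was found in 46 genes, while the ligand Wnt16 and the inhibitor Sfrp4 had none. Lef1 with 135, Fzd5 with 134 and Tcf7l2 with 133 CpGs had the most.

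The 24 samples were the dentate gyri of female C57BL/6JRj mice, 8 in each of 3 groups. Young STD mice were 3 months old and lived in standard cages, aged STD mice were 17 months old and lived in standard cages, and aged ENR mice were 17 months old and had spent the last 3 months in an enriched environment (ENR). DNA methylation was measured by reduced representation bisulfite sequencing (RRBS), in which CpG-rich DNA fragments are sequenced after bisulfite treatment. The treatment converts unmethylated cytosines, while methylated cytosines are still read as C. Each value is the percentage of reads that were methylated at a CpG in a mouse. All mice were of this inbred strain with no transgene or drug named in the labels. The dissected tissue was a mixture of neurons, glia and other cells, so a percentage between 0 and 100 cannot be assigned to a cell type.

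In canonical Wnt signaling, a secreted Wnt protein binds a Frizzled receptor and the co-receptor Lrp5 or Lrp6, and Dishevelled (Dvl) proteins then stop the Axin and Apc complex from marking β-catenin (Ctnnb1) for destruction. β-catenin enters the nucleus and acts with the DNA-binding factors Lef1, Tcf7, Tcf7l1 and Tcf7l2. Sfrp proteins bind Wnt ligands and Dkk1 and Dkk2 bind the Lrp co-receptors, and in the dentate gyrus the pathway is known for its part in adult neurogenesis.

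A mouse had values at 1078 to 2214 of the pathway's CpGs (median 1545), against 308751 to 608017 CpGs in the whole table. Of 37672 values, 74.9% were exactly 0 and 12.9% exactly 100, compared with 53.6% and 30.0% over all genes and intergenic DNA. The number of reads behind a percentage is unknown, so no interval is given for single values, and values were complete over all mice at 31 CpGs and present in at least 5 mice of each group at 767. At 258 CpGs measured on both strands, 86.6% of 2925 strand differences within a mouse were 10 points or less and 4.03% were over 50 points. Aged STD replicate 5 stood apart at gene bodies, where its levels lay a median of 3.25 points below the mean of all mice (−3.25, against −0.978 to 2.53 in the other mice). Of the tissue's marker genes, the granule neuron genes Prox1, Dsp and C1ql2 had promoter levels of 1.83%, 2.16% and 1.30%, the oligodendrocyte gene Mbp had 9.97% and the astrocyte gene Aqp4 had 29.2%, while the markers Calb1, Gfap, Mog, Cx3cr1, Csf1r, Ptprc and Cd79a had no promoter level. No RNA was measured.

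The sequences that carry the level pattern are those of an unmethylated receptor promoter and of the 2 start regions of Axin1, a scaffold of the β-catenin destruction complex. They are written 5′ to 3′ on the plus strand of GRCm38, with the CpGs that have a value in capitals. The Fzd10 promoter is the RefSeq sequence of chr5:128600856-128601155. The Axin1 windows lie around the outermost start site (chr17:26138761-26138856) and around internal start sites (chr17:26188156-26188347).
Fzd10 promoter: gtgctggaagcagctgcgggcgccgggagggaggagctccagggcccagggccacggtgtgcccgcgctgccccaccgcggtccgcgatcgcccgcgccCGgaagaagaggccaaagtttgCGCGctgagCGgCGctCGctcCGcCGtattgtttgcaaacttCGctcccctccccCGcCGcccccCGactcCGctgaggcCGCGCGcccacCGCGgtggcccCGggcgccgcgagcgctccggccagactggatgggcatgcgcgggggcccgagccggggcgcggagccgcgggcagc
Axin1 outermost start: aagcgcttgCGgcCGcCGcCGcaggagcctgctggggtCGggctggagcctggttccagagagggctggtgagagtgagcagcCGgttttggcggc
Axin1 internal start: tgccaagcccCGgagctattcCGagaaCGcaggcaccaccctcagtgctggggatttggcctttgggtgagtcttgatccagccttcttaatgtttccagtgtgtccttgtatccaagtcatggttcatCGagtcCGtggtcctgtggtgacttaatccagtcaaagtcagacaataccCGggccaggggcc
At the 19 measured CpG positions of the Fzd10 promoter, the mean over mice ranged from 0% to 5.28%. The 6 values of the outermost Axin1 window averaged 1.94% and the 6 of the internal window 94.0%.

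The CpGs shown next are 6 of the 7 at which a class of the pathway had its smallest unadjusted p for aging or ENR. They were picked among CpGs with at least 5 mice in each group, and the Fzd8 CpG is described by its values only. Also shown are 2 promoter windows in which a mouse with a high level carried a methylated run. Each line has the CpG concerned in capitals for single sites and all measured CpGs in capitals for windows, again on the plus strand of GRCm38.
Wnt6, chr1:74783619-74783660: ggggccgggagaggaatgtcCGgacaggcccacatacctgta
Fzd7, chr1:59482589-59482630: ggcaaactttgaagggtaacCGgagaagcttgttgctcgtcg
Dkk2, chr3:132085415-132085456: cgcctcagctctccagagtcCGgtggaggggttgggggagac
Lef1, chr3:131160581-131160622: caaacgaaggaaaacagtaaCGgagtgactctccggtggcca
Wnt3, chr11:103774372-103774413: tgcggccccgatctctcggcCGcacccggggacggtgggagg
Tcf7l1, chr6:72788548-72788589: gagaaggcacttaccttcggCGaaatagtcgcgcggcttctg
Dkk3 promoter window, chr7:112158345-112158441: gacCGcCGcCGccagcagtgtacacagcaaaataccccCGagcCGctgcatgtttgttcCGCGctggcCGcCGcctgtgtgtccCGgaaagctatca
Fzd9 promoter window, chr5:135250372-135250450: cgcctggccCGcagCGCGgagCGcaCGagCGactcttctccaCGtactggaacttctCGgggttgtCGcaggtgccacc

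Most promoters of the pathway had low methylation in all groups. A promoter was taken as the CpGs within 1 kb of any start site of the gene, and its level in a mouse came from an additive fit of CpG and mouse effects, which corrects for CpGs missing in a mouse and can fall slightly below 0 or above 100. A level was available for 35 promoters. Wnt4, Wnt7a, Fzd3 and Lrp5 had no promoter CpG, and Wnt6, Wnt8b, Wnt9a, Wnt10a, Fzd6, Sfrp5 and Dvl1 had too few CpGs or mice. The median level was 2.63%, compared with 2.39% over the 11491 promoters of all protein-coding genes with a level, and 32 of 35 promoters (91.4%) lay under 10%, compared with 78.2% of all. The receptors had the lowest class median (1.57%, range 0.757% to 2.85%, 9 promoters), followed by ligands (2.38%, 11), inhibitors (2.63%, 5) and intracellular genes (4.74%, 10).

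The least methylated promoters were those of the co-receptor Lrp6 (0.757%), the Wnt-binding inhibitor Sfrp1 (0.932%) and the ligand Wnt2 (1.04%). In Lrp6, the lowest, median and highest young STD mouse had −0.345%, −0.0627% and 5.81%, the aged STD mice −0.305%, 0.238% and 2.41%, and the aged ENR mice −0.219%, 0.0475% and 1.66%. Values of the 3 groups overlapped, as they did in Sfrp1 and Wnt2, where no mouse exceeded 6.58% and 4.45%.

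The most methylated promoters were those of Axin1 (47.5%), the ligand Wnt5b (19.8%) and Axin2, a second scaffold of the destruction complex (11.5%). All 3 genes have several start sites, and mean levels were higher near internal ones than near the outermost one. In Axin1, the 6 CpGs near the outermost start averaged 1.94% and the 6 near internal starts 94.0%, with 85.1% to 100% at single CpGs. In Axin2, 21 CpGs near the outermost start averaged 0.926% and 12 near internal starts 32.1%, and in Wnt5b the corresponding means were 10.9% (13 CpGs) and 27.9% (11 CpGs). Single CpGs at the outermost Wnt5b start reached 58.8%. The windows of 201 bases around these CpGs held a median of 20, 18 and 22 CpGs at the outermost starts of Axin1, Axin2 and Wnt5b, and 4.5, 7 and 5 at the internal ones. With only the outermost start of each gene, 31 of 33 pathway promoters (93.9%) and 90.6% of 10068 promoters overall were under 10%. The exceptions were then Wnt5a with 37.4% over 10 CpGs and Wnt5b with 13.5%, and this definition was chosen after the levels had been seen.

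Gene bodies differed widely within the pathway. A body was taken as the CpGs inside the gene and over 1 kb from each of its start sites, and 33 bodies had a level. Sfrp5, Dkk1 and Dvl2 had no body CpG, and Wnt2b, Fzd4, Fzd7, Fzd9, Sfrp2, Dkk2, Axin1, Tcf7, Dvl1 and Dvl3 had too few CpGs or mice. The median body level was 33.4%, compared with 68.1% over the 7023 bodies of all genes with a level, and 19 of 33 (57.6%) lay under 50%, compared with 32.3% of all.

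Among the 16 ligands, body levels ran from 2.58% in Wnt1 and 5.59% in Wnt10a to 67.2% in Wnt9b and 94.1% in Wnt2, with a median of 27.2%. Among the receptors, the bodies of Fzd1 (2.73%), Fzd8 (3.06%), Fzd5 (7.61%), Fzd2 (8.50%) and Fzd10 (13.3%) were low and those of Lrp6 (67.0%), Lrp5 (79.7%), Fzd3 (87.3%) and Fzd6 (96.0%) were high. All body CpGs of the 5 low Frizzled genes were exonic. The 10 exonic CpGs of Fzd6 averaged 94.6% and the 11 of Fzd3 91.8%, so exonic position alone did not separate the Frizzled genes. The bodies of the inhibitors Dkk3 (59.2%) and Sfrp1 (86.0%) and of the transcription factors Lef1 (54.9%), Tcf7l2 (65.9%) and Tcf7l1 (68.0%) were intermediate to high, whereas Ctnnb1 (12.7%) and Axin2 (24.1%) were low. Of the 80 body CpGs of Fzd5 and the 100 of Wnt5b, 60 and 65 lay within 1 kb of a start site of another gene.

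**Figure D1:**
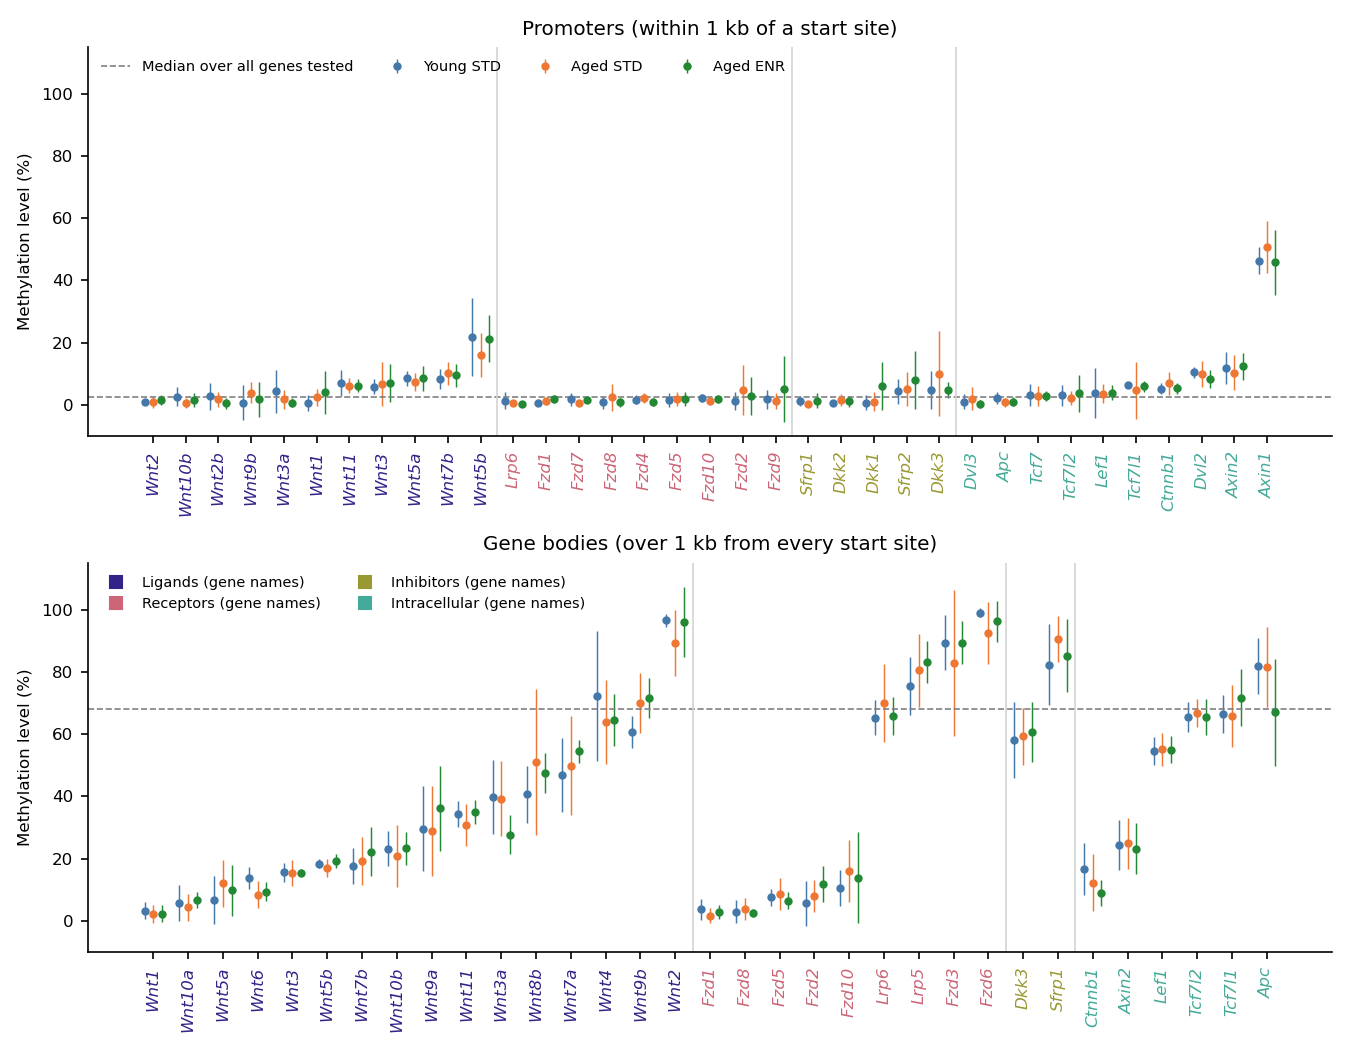
Methylation level (%, vertical axis) of each pathway promoter (top) and gene body (bottom) with a level, as mean ± SD over the mice of each group (at most 8), with gene names colored by class. Promoters lie under 10% apart from Axin1 (47.5%), Wnt5b (19.8%) and Axin2 (11.5%), with Dvl2 (9.64%), Wnt7b (9.27%) and Wnt5a (8.14%) next, while bodies run from 2.58% in Wnt1 to 96.0% in Fzd6. The dashed lines are the medians over all genes tested, 2.39% and 68.1%.

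The pathway's body CpGs lay in CpG-rich sequence more often than those of other genes. A window of 201 bases held a median of 9 CpGs, compared with 6 over all genes, and 490 of 1168 body CpGs (42.0%) had at least 12, compared with 17.2% of 197202. At such dense body CpGs the mean level was 6.92% in the pathway and 19.4% over all genes, and at body CpGs with under 6 it was 61.3% and 67.0%. By class, the share of dense body CpGs was 70.4% in receptors, 49.0% in ligands, 8.56% in intracellular genes and 0 of 37 in inhibitors, and the mean body CpG level in the same order was 22.1%, 24.9%, 55.6% and 72.2%. In RefSeq, 34 of the 48 genes had a promoter sequence, of which 29 (85.3%) had an observed to expected CpG ratio over 0.6, compared with 38.3% of 27025 genes. These are descriptions over CpGs that share libraries and fragments, with no test.

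Ligand and receptor CpGs were set beside all genes by their distance downstream of the start site. Between 500 and 1000 bases, 29 ligand CpGs averaged 20.1% and 114 receptor CpGs 3.21%, compared with 12.9% over all genes. Between 1 and 2 kb downstream, 195 receptor CpGs averaged 4.14% and 90 ligand CpGs 5.23%, compared with 28.0% over all genes. Between 2 and 5 kb the means were 22.7% (64 receptor CpGs), 20.4% (71 ligand CpGs) and 40.4%, and between 5 and 10 kb the 52 ligand CpGs averaged 19.1%, compared with 50.9% over all genes. From 10 to 50 kb downstream, the mean was 48.0% at 149 ligand CpGs, 87.2% at 35 receptor CpGs, 60.2% at 128 intracellular CpGs and 57.2% over all genes. The bins hold different genes. All 35 receptor CpGs from 10 to 50 kb belonged to Fzd3, Fzd6, Lrp5 and Lrp6, and those from 1 to 2 kb to Fzd1, Fzd2, Fzd5, Fzd8, Fzd9 and Fzd10, while 41 of the 52 ligand CpGs from 5 to 10 kb were of Wnt10a.

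**Figure D2:**
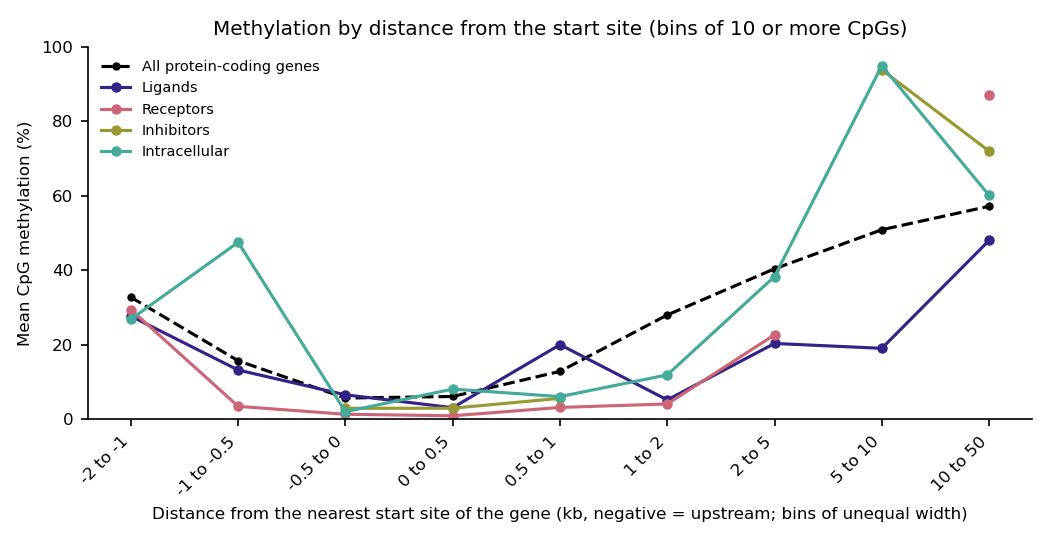
Mean CpG methylation (%, vertical axis) in bins of distance from the nearest start site of the gene (kb, horizontal axis, bins of unequal width) for each class of the pathway and for all protein-coding genes (dashed). Ligand and receptor CpGs from 1 to 2 kb downstream average 5.23% and 4.14%, below the 28.0% of all genes. The intracellular point at −1 to −0.5 kb rests on 12 CpGs.

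To ask what aging under standard housing did to the pathway, aged STD mice were compared with young STD mice. No promoter, body or CpG of the pathway passed the test. At regions, limma with a variance trend was fitted over all genes and p-values were adjusted by the Benjamini-Hochberg method. Of 35 pathway promoters 0 had an adjusted p under 0.05 and 0 an unadjusted p under 0.05, while 0.0087% and 4.73% of all 11491 promoters did. Of 33 pathway bodies 0 passed after adjustment and 2 had an unadjusted p under 0.05, compared with 0% and 5.61% of all 7023 bodies. The median difference was −0.25 points at pathway promoters (0 over all promoters) and −0.18 points at pathway bodies (−0.69 over all bodies). At promoters the standard error of a difference was 0.62 to 4.50 points (median 1.68), and 33 of 35 differences were within 5 points. At bodies it was 1.45 to 7.52 points (median 3.82), and 22 of 33 differences were within 5 points.

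The body of Wnt6, a ligand gene on chr1:74771892-74785322, had the smallest unadjusted p. Over its 33 body CpGs, the lowest, median and highest level was 8.64%, 14.0% and 18.6% in young STD, 1.42%, 7.70% and 15.7% for aged STD, with 4.18%, 8.89% and 13.4% for aged ENR mice. The groups overlapped, with the young median above the highest aged ENR mouse and below the highest aged STD mouse. The aging difference was −5.40 ± 1.87 points (SE, limma unadjusted p = 0.00811, adjusted p = 0.684), and an exact two-sided permutation test over the mice gave p = 0.0154 without adjustment.

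Wnt9b, a ligand gene on chr11:103727364-103749821, had the opposite sign. Its body (22 CpGs) had a lowest, median and highest level of 54.9%, 59.0% and 67.1% in young STD, 52.4%, 70.9% and 80.0% for aged STD, with 61.6%, 74.4% and 79.6% for aged ENR mice. The ranges overlapped, and the young median lay under the lowest aged ENR mouse. The aging difference was 9.28 ± 3.82 points (limma unadjusted p = 0.0233, adjusted p = 0.820, exact permutation p = 0.0325 without adjustment). With the plain mean of CpGs in place of the additive fit, the unadjusted p was 0.110 for Wnt6 and 0.140 for Wnt9b, so that 0 of 33 bodies were under 0.05 (4.84% of all), and with the replicate block it was 0.0504 for Wnt9b, which left 1 body (5.92% of all). With only CpGs measured in at least 16 mice, the count was 4 of 24 bodies (5.86% of all).

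The largest aging differences of each class were under 2 standard errors. At bodies they were 10.32 ± 7.16 points in the ligand Wnt8b, −6.60 ± 4.24 in the receptor Fzd6, 8.19 ± 5.27 in the inhibitor Sfrp1 and −4.40 ± 3.63 in Ctnnb1. The Wnt8b difference, which rested on 5 aged STD mice, was 18.4 points without aged STD replicate 5, 6.86 without replicate 2, 2.82 without replicate 7 and 17.5 with the plain mean of its CpGs. The Fzd6 difference was −2.42 points without aged STD replicate 4. The Sfrp1 difference was 4.64 points without young STD replicate 3 and 2.68 with the plain mean, and that of Ctnnb1 was −2.37 points without young STD replicate 1 and −2.09 without aged STD replicate 1. At promoters the largest were −5.87 ± 4.50 points in Wnt5b, 3.46 ± 3.10 in Fzd2, 5.25 ± 4.16 in Dkk3 and 4.44 ± 4.34 in Axin1, all with adjusted p from 0.910 to 0.922 (limma). The Wnt5b difference was −2.13 points without young STD replicate 2 and −3.82 without aged STD replicate 1, and the Axin1 difference was 2.18 points without aged STD replicate 8 and 6.95 without aged STD replicate 2. The Axin1 difference was −7.08 points when the plain mean of its CpGs was used.

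To ask what 3 months of ENR did in old mice, aged ENR were compared with aged STD mice. The aged STD mice enter both this and the aging comparison, so opposite signs in the 2 are not independent. Of 35 pathway promoters 0 passed after adjustment and 0 had an unadjusted p under 0.05 (0.0174% and 4.28% of all promoters). Of 33 pathway bodies 0 passed and 2 had an unadjusted p under 0.05 (0% and 4.43% of all bodies). The latter count was 1 of 33 with the plain mean of CpGs, the replicate block or array weights (3.76%, 4.41% and 5.18% of all bodies), and 0 of 24 with only CpGs measured in at least 16 mice (4.36%). The median difference was 0.08 points at pathway promoters (−0.18 over all) and 0.99 points at pathway bodies (−0.37 over all). Within 5 points lay 31 of 35 promoter and 26 of 33 body differences.

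The body of Wnt3a, a ligand that supports hippocampal progenitor cells, had 15 CpGs on chr11:59248033-59290752. Its lowest, median and highest level was 18.9%, 42.3% and 53.0% in young STD, 16.1%, 40.3% and 53.7% for aged STD, with 18.2%, 27.1% and 37.4% for aged ENR mice. All aged ENR mice lay under the median of either other group, and the ranges overlapped. The ENR difference was −11.54 ± 5.05 points (limma unadjusted p = 0.0313, adjusted p = 0.992, exact permutation p = 0.0323 without adjustment), and it was −14.8 points without aged STD replicate 5. With the replicate block the unadjusted p was 0.0524.

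Apc, the destruction complex scaffold that holds β-catenin, had 10 body CpGs. The lowest, median and highest level was 68.1%, 81.6% and 98.2% in young STD, 58.6%, 88.6% and 92.1% in the 7 aged STD mice with a level, and 37.4%, 74.0% and 82.6% in aged ENR mice. The ENR difference was −14.64 ± 6.67 points (limma unadjusted p = 0.0385, adjusted p = 0.992), with an exact permutation p of 0.0864 and an unadjusted limma p of 0.0599 with the plain mean of CpGs. Leaving out each mouse in turn gave −18.5 (without aged STD replicate 2) to −10.4 points (without aged ENR replicate 2).

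Among the other classes, the largest body differences under ENR were 6.60 ± 7.41 points in Fzd3 and −5.34 ± 5.27 in Sfrp1. In Fzd3, aged STD replicate 5 had 35.1% while the group median was 88.6%, and without it the difference was −1.37 points, while it was 10.6 points without aged STD replicate 4. The Sfrp1 difference was −2.70 points without aged ENR replicate 7 and −3.54 without aged STD replicate 2. At promoters, the largest were 5.24 ± 4.50 points in Wnt5b, 3.95 ± 3.30 in Fzd9, −5.29 ± 4.16 in Dkk3 and −5.01 ± 4.34 in Axin1, each with an adjusted p of 0.949 (limma). Without aged ENR replicate 2, whose level of 20.5% came from 3 CpGs, the Axin1 difference was −1.40 points, and it was −2.76 points without aged STD replicate 8, −7.52 without aged STD replicate 2 and 2.24 with the plain mean of CpGs. The Wnt5b difference was 12.5 points with the plain mean, 3.19 without aged STD replicate 1 and −1.44 with only the outermost start.

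**Figure D3:**
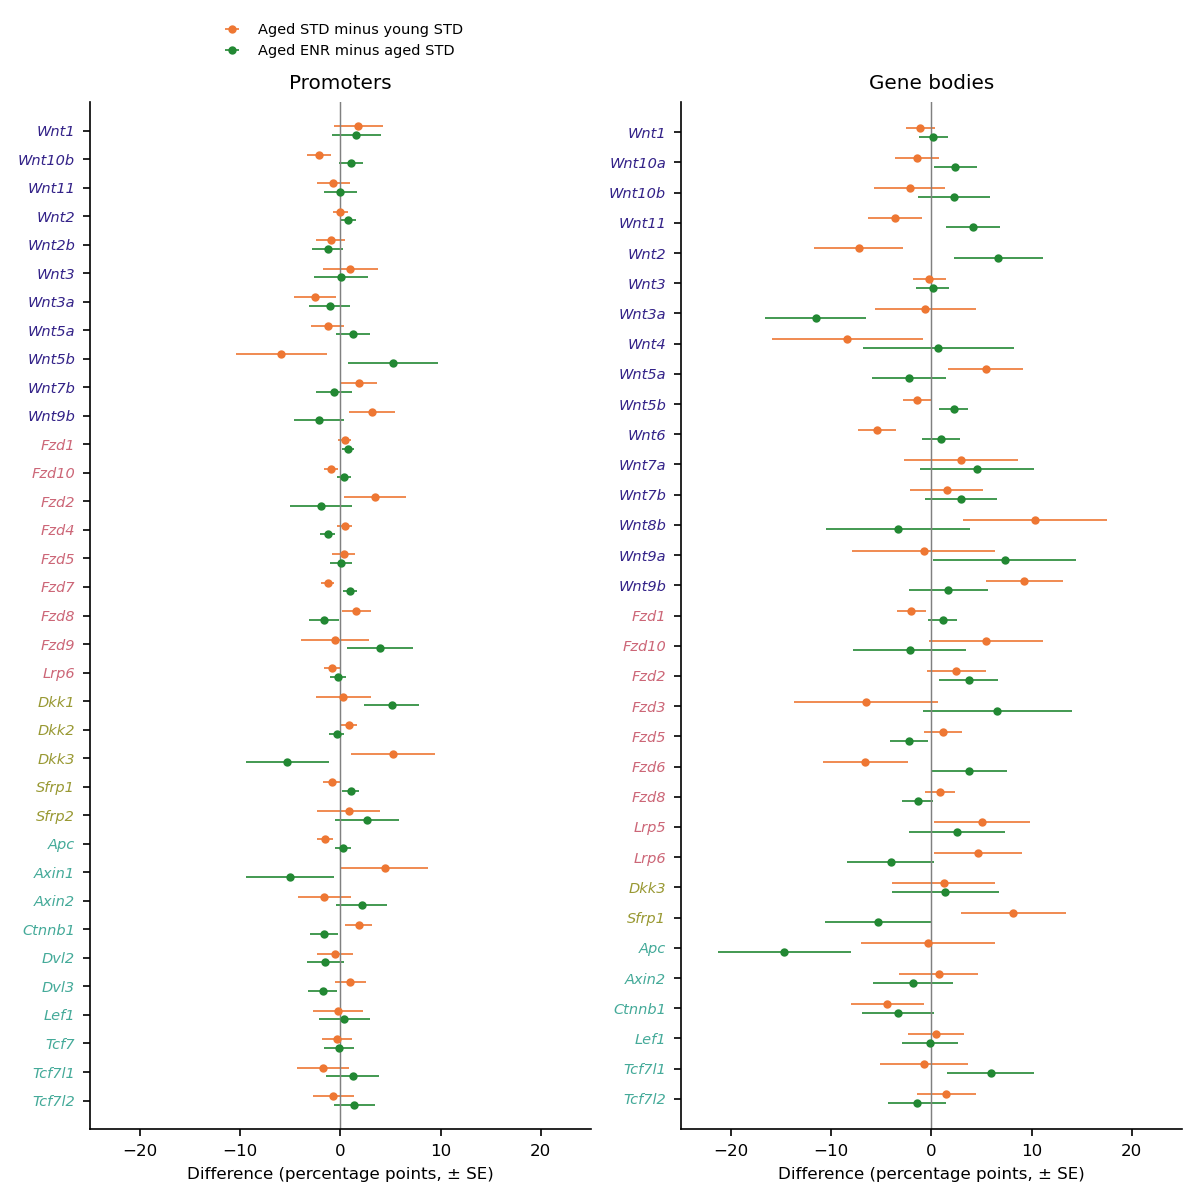
Difference in methylation (percentage points ± SE, horizontal axis) of each pathway promoter (left) and gene body (right) between aged STD and young STD mice (orange) and between aged ENR and aged STD mice (green), from limma. The extremes are the Wnt8b body for aging (10.32 points) and the Apc body for ENR (−14.64 points), and none passed the adjusted threshold. Both differences of a gene share the aged STD mice.

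Aged ENR and young STD mice were compared as the remaining pair of groups. Again 0 of 35 promoters and 0 of 33 bodies passed (0.0174% of all promoters and 0% of all bodies), and at an unadjusted p under 0.05 the counts were 0 promoters and 6 bodies, or 18.2% of the pathway's bodies, compared with 4.39% of all promoters and 5.92% of all bodies. The 6 bodies were Wnt9b (10.98 ± 3.95 points), Fzd2 (6.22 ± 2.94), Wnt6 (−4.41 ± 1.87), Ctnnb1 (−7.72 ± 3.63), Wnt3a (−12.12 ± 5.05) and Apc (−14.95 ± 6.44), with adjusted p from 0.732 to 0.827 (limma). Higher and lower levels in aged ENR mice were both present, in 2 and 4 genes. The count depended on the processing. It was 3 bodies under the plain mean of CpGs (5.25% of all bodies), with an unadjusted limma p of 0.251 in Wnt3a, 0.0925 in Ctnnb1 and 0.0609 in Wnt9b. With centred mice it was 4 (5.77% of all, p of 0.0878 in Ctnnb1 and 0.103 in Wnt6). The replicate block also gave 4 (5.35%, p of 0.0708 in Ctnnb1 and 0.0638 in Fzd2), as did the fits without the variance trend (5.92%) and with array weights (7.03%). With only CpGs measured in at least 16 mice, 3 of 24 bodies remained (5.97%). The count stayed at 6 with at least 10 CpGs per body (6 of 31, 6.16%) and without CpGs near other start sites (6 of 33, 6.04%). The median difference was −0.01 points over pathway promoters and 0.39 points over pathway bodies, compared with −0.18 and −1.04 over all.

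In Ctnnb1, which encodes β-catenin, the body (16 CpGs) had a lowest, median and highest level of 5.93%, 14.8% and 30.9% in young STD, then −3.87%, 11.2% and 26.6% in aged STD, then 3.42%, 8.96% and 14.7% in aged ENR mice. In Fzd2, the corresponding levels over 38 body CpGs were −7.58%, 6.59% and 14.7%, then −0.403%, 8.74% and 13.2%, then 4.87%, 11.4% and 20.1%. The ranges overlapped in both genes.

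**Figure D4:**
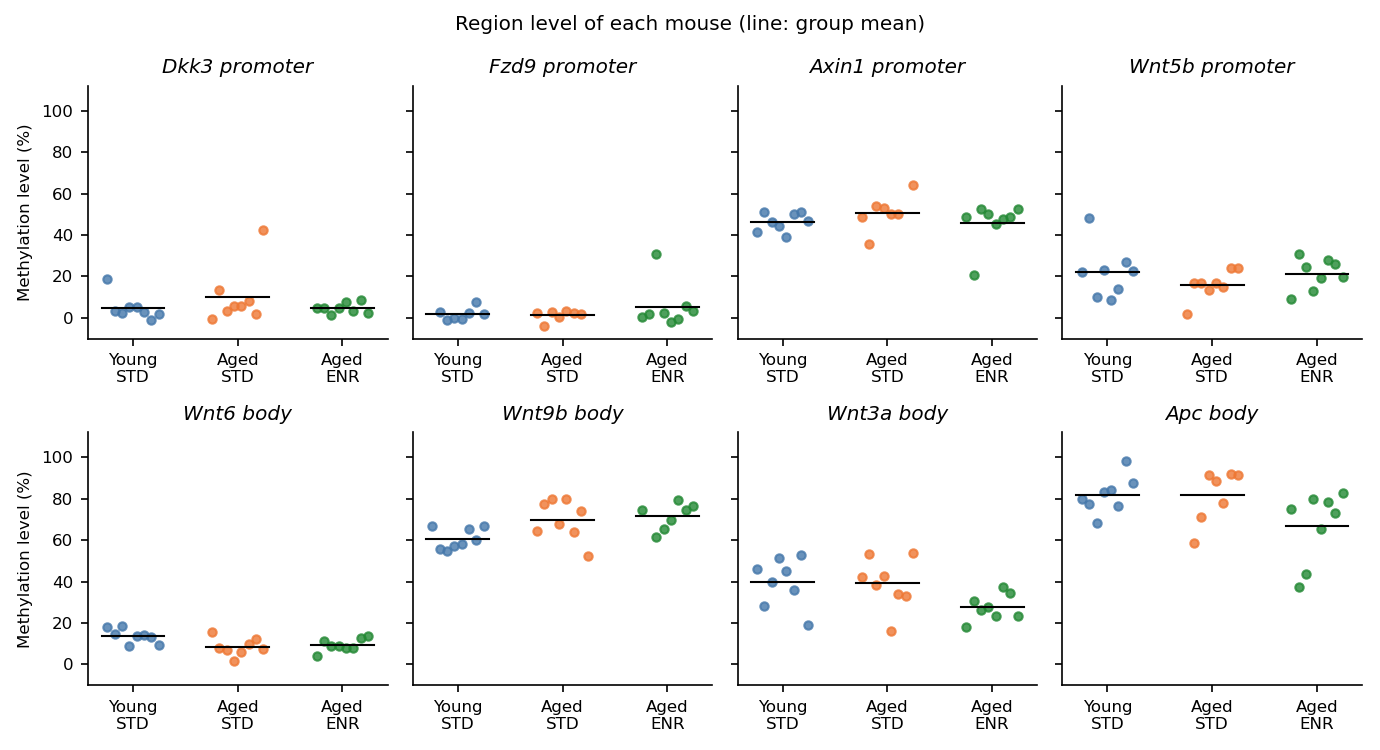
Methylation level (%, vertical axis) of each mouse in 4 pathway promoters and 4 gene bodies by group, with a line at the group mean. In the Dkk3 and Fzd9 promoters a single mouse lies far above the rest of its group, at 42.5% (aged STD) and 30.7% (aged ENR). In the 4 bodies the groups overlap.

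At single CpGs, group means over 25 points apart were counted first. The study used this size together with a q-value threshold from a test on reads, which could not be run here. Means were taken over mice without weighting by reads, so these counts are of sizes and not of the study's calls. Between aged STD and young STD mice 192 of 2519 pathway CpGs (7.62%) met this size, 98 of them higher in aged STD mice, compared with 9.15% of all CpGs. Between aged ENR and aged STD mice 191 (7.58%) met it, 97 of them higher in aged ENR, compared with 8.33% of all. Between aged ENR and young STD mice 167 (6.63%) met it, compared with 8.42% of all. The sizes rest partly on few mice, and with at least 5 mice in each group the counts were 30 of 767 pathway CpGs for aging (3.91%, compared with 5.15% of 223328 CpGs overall), 19 for ENR (2.48%, compared with 4.72%) and 22 for aged ENR against young STD (2.87%, compared with 4.82%).

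Most of these CpGs lay in gene bodies. For aging, 139 of 1168 body CpGs (11.9%) and 42 of 1285 promoter CpGs (3.27%) met the size, compared with 14.1% and 3.93% over all genes. For ENR the counts were 135 (11.6%) and 41 (3.19%), compared with 13.0% and 3.43%. Intracellular bodies had the highest share after the 37 inhibitor body CpGs for aging (59 of 327, 18.0%) and the highest for ENR (67 of 327, 20.5%), and receptor promoters had 11 of 438 (2.51%) in both comparisons.

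With limma fitted over the whole table, 0 of 2519 pathway CpGs had an adjusted p under 0.05 for aging, ENR or aged ENR against young STD, while 0.0049%, 0.00446% and 0.00504% of all CpGs did. At an unadjusted p under 0.05 there were 40 (1.59%), 32 (1.27%) and 42 (1.67%) pathway CpGs, compared with 2.23%, 1.9% and 2.18% of all CpGs. Of the 40 for aging, 25 were higher in aged STD mice, and 13 of the 32 for ENR were higher with ENR. Both comparisons share the aged STD mice. Directions over all CpGs were not counted at this threshold, so nothing is read from these counts.

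The smallest aging p among the 269 ligand CpGs with at least 5 mice in each group belonged to an intronic CpG of Wnt6 at chromosome 1, position 74783639 on the plus strand, 1200 bases past a start site. The 6 young STD mice had a lowest, median and highest value of 33.3%, 97.9% and 100%. The 5 aged STD mice had 0%, 36%, 17.6%, 0% and 3.70%, and the 7 aged ENR mice 0%, 30% and 68.8% as lowest, median and highest. Without aged STD replicate 5, the 36% value, the aged STD mean was 5.34% in place of 11.5%. Of the young mice 5 lay above all aged STD mice, and replicate 1 lay among them. The aging difference was −75.1 ± 14.8 points (limma unadjusted p = 0.000132, adjusted p = 0.555, exact permutation p = 0.00866 without adjustment), and that between aged ENR and young STD mice was −58.9 ± 13.6. The only other measured CpG within 100 bases averaged 0% in young STD, 7.90% in aged STD mice and 3.87% with ENR. This CpG is 1 of the 33 behind the Wnt6 body level.

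An intronic CpG of Lef1, a DNA-binding partner of β-catenin, had the smallest aging p among 175 intracellular CpGs. It lies at chromosome 3, position 131160602 on the minus strand, 46746 bases from the nearest start site. The lowest, median and highest value was 0%, 4.88% and 100% in 7 young STD, 31.7%, 61.2% and 100% in 7 aged STD, and 0%, 25.2% and 60.3% in 8 aged ENR mice. The aging difference was 46.0 ± 17.0 points (limma unadjusted p = 0.0140, adjusted p = 1.0, exact permutation p = 0.0373) and the ENR difference −43.1 ± 16.5 points (limma unadjusted p = 0.0169, adjusted p = 1, exact permutation p = 0.0162). Its 5 measured neighbors within 100 bases averaged 36.8%, 44.0% and 35.6% in the 3 groups.

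The remaining aging CpGs lay in promoters. In Fzd7, a receptor gene, the exonic CpG at chromosome 1, position 59482609, was at 0% in all 7 aged STD mice and had a lowest, median and highest value of 0%, 33.9% and 56.8% in young STD and 0%, 0% and 38.3% in aged ENR mice. The aging difference was −26.1 ± 8.81 points (limma adjusted p = 1.0, exact permutation p = 0.0699), while 14 neighbors within 100 bases averaged 0.576%, 0.566% and 0.507%. In Dkk2, an Lrp-binding inhibitor, the CpG at chromosome 3, position 132085435, was at 0% in all 8 young STD mice, and its lowest, median and highest value was 0%, 9.91% and 27.6% for aged STD and 0%, 0% and 15.8% for aged ENR mice. The aging difference was 11.1 ± 3.81 points (limma adjusted p = 1.0, exact permutation p = 0.0300) and the ENR difference −8.60 ± 3.92 points, the smallest ENR p of the 74 inhibitor CpGs (exact permutation p = 0.0828), and −5.31 points without aged STD replicate 3.

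For ENR, the intronic promoter CpG of Wnt3 at chromosome 11, position 103774393, was at 0% in all 6 aged STD mice, and had 0%, 37.5% and 48.4% in aged ENR and 0%, 0% and 36.7% in young STD mice. The difference was 28.4 ± 8.90 points (limma adjusted p = 1, exact permutation p = 0.0606), and 4 of 6 aged ENR mice lay above all aged STD mice. In Tcf7l1, the exonic CpG at chromosome 6, position 72788569, was at 0% in all aged ENR and young STD mice, and the 5 aged STD mice averaged 12.3%, or 7.20% without replicate 5 (difference −12.3 ± 4.55 points, limma adjusted p = 1, exact permutation p = 0.121).

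The ENR CpG of the receptors was an exonic CpG of Fzd8 at chromosome 18, position 9214657. It was at 0% in all 6 aged ENR mice, at 0% in 3 and 100% in the other aged STD mice, and reached 38.5% in young STD mice. The difference of −40.0 ± 18.4 points rested on the 2 aged STD mice at 100%, replicates 4 and 7, and was −25 points without either of them (limma adjusted p = 1, exact permutation p = 0.364).

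**Figure D5:**
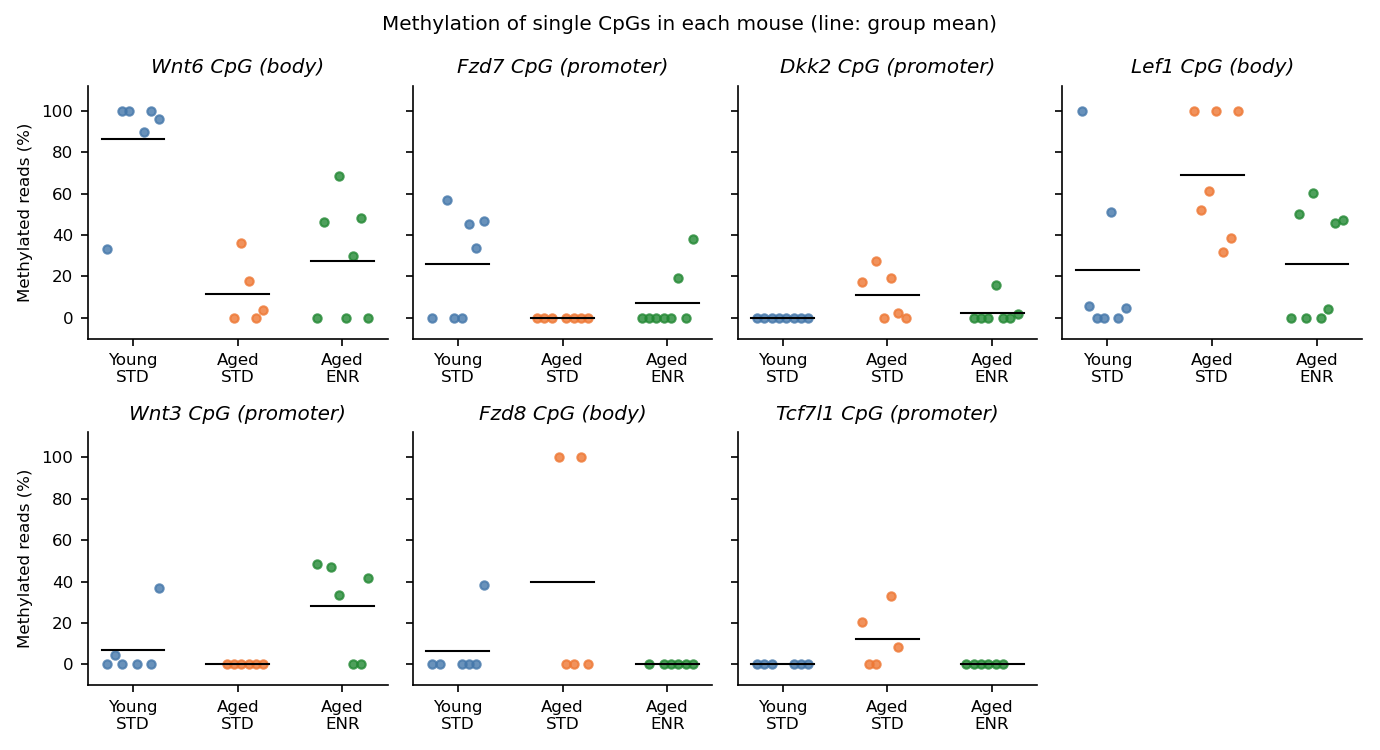
Methylated reads (%, vertical axis) of each mouse at the 7 single CpGs with the smallest unadjusted p of a class, with a line at the group mean. At the Wnt6 CpG the young STD mice average 86.5% and the aged STD mice 11.5%. At the Fzd7 and Wnt3 CpGs all aged STD mice are at 0.

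In some promoters, chosen after their values had been seen, a single mouse lay far above the others of its group. In Dkk3, a divergent member of the Dkk family on chr7:112116017-112159057, the promoter (30 CpGs) had a lowest, median and highest level of −1.13%, 3.07% and 18.8% in young STD, −0.496%, 5.71% and 42.5% for aged STD, with 1.34%, 4.73% and 8.79% for aged ENR mice. The highest value was that of aged STD replicate 8, which had values at 17 promoter CpGs and exceeded 50% at 7 of them. In the 76 bases between positions 112158355 and 112158430, within the window shown above, this mouse had 100% at 6 of 8 minus-strand CpGs and 0% at the others, where the remaining 13 or 14 mice with a value averaged 0% to 5.81%. On the plus strand of the same window the mouse was at 0% at positions 112158348, 112158351 and 112158354, and the last of these is the CpG whose minus strand, at position 112158355, was at 100%. Without this mouse, the Dkk3 promoter differences were 0.62 points for aging and −0.66 points for ENR.

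In Fzd9, a receptor gene on chr5:135248938-135251230, aged ENR replicate 3 had a promoter level of 30.7%, while the group median was 1.99%. In this mouse all 9 CpGs of 58 bases from position 135250382 to 135250439 were at 100%. Its next CpGs, at positions 135250451 and 135250457, were at 0%. The 8 other mice with values in the stretch averaged 12.5% at positions 135250387, 135250389, 135250394 and 135250402, and 0% at the rest of these CpGs. Methylation at part of the stretch was therefore not confined to aged ENR replicate 3. The ENR difference of the Fzd9 promoter was 0.30 points without this mouse. In Fzd2, aged STD replicate 8 had 20.4%, which came from a single CpG over 50% and not from a run. Aged ENR replicate 6 also exceeded 50% at this CpG, position 102603525. Without aged STD replicate 8 the aging difference of Fzd2 was 0.32 points.

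Of 61 further Wnt pathway genes, which include R-spondins, Lgr receptors, Gsk3b and Tle co-repressors, 46 promoters and 38 bodies had a level. Their promoters had a median of 1.98% and their bodies of 52.5%. None passed limma after adjustment in the 3 comparisons. For aging, 1 promoter and 1 body had an unadjusted p under 0.05. These were the co-repressor Tle2 (−8.81 ± 3.68 points, adjusted p = 0.909) and the cadherin Celsr2 (−10.03 ± 4.38 points, adjusted p = 0.862). For ENR there were 0 and 0, compared with 4.28% of all promoters and 4.43% of all bodies. A single region among 46 promoters or 38 bodies is not above the 4.73% and 5.61% of all promoters and bodies under this threshold for aging. Between aged ENR and young STD mice it was again Tle2 (−9.14 ± 3.56 points, adjusted p = 0.962) and Celsr2 (−10.18 ± 4.38 points, adjusted p = 0.773). In that comparison 4.39% of all promoters and 5.92% of all bodies had an unadjusted p under 0.05.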

How the data were processed

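RRBS libraries of the dentate gyrus of 24 mice were analysed. The authors deposited methylation as a percent per CpG, strand and mouse. According to the submitters' processing notes, reads were trimmed with Trim Galore 0.4.0 and cutadapt 1.8.1, mapped to mm10 with Bismark 0.16.1 and filtered with methylKit 1.5.2, while the study's methods name later releases of Trim Galore and Bismark. Per the study's methods, CpGs needed at least 10 reads in a mouse and a value in 3 mice per group, and extreme coverage was removed. Read counts are not given, so read-level tests could not be run, and depth per value is unknown. Labels do not tie mice to cages or litters, so p-values measure the spread between these mice. Per the study's methods, the ENR mice of an experiment shared an enclosure and the control mice were kept in smaller groups, so ENR and the shared enclosure cannot be told apart.

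All 2519 pathway CpGs lay at a CG of GRCm38. Promoters were CpGs within 1 kb of a GENCODE M21 start site and bodies the remaining CpGs of the gene. A region needed 5 CpGs, a mouse 3 of them and a group 5 mice. Region levels came from an additive fit of CpG and mouse effects. limma 3.58.1 (R 4.3.3) was fitted with all 3 groups over the 11491 promoters, 7023 bodies or 694379 CpGs, with Benjamini-Hochberg adjustment. The size criterion was over 25 points, with a margin of 1e-06 for rounding. Exact two-sided permutation tests used all relabelings (12870 for 8 against 8 mice, smallest p 0.000155). CpG density was counted within 100 bases either side. The fits were tested on simulated data. Python 3.11.15, numpy 2.4.6, pandas 2.3.3, scipy 1.17.1, matplotlib 3.10.9 and samtools 1.23.1 were used. Sequences came from GRCm38 and, for Fzd10, the RefSeq table of the same build.

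The genes and lists were chosen with earlier results of these data known. Named were genes with no CpG, the 3 genes with most CpGs, the 3 most and 3 least methylated promoters, any region or CpG past the adjusted threshold, and for each class and for aging and ENR the promoter and body with the largest difference and the CpG with the smallest unadjusted p among those with 5 mice per group. Bodies with an unadjusted p under 0.05 and the start-site clusters were added after their values had been seen. So were the methylated runs of Dkk3 and Fzd9 and the CpGs that passed only in an alternative fit. Alternatives changed the minimum number of CpGs or mice, the promoter width, the level estimate, the centring of mice and the group mean. They also changed the size threshold, the scale, the variance model, the weights and the strands, and added a replicate block. Each mouse was left out in turn for aging and for ENR, but not for aged ENR against young STD.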

Additional observations from a re-analysis of the deposited data

Results flagged for a closer look

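In 15 of 78 groups of values examined at the named regions and CpGs, the highest or lowest mouse lay far from the others of its group by Dixon's criterion, which chance meets in about 1 of 20 groups of normally distributed values. Several of these groups lay near 0 and the regions were named for large differences, so this rate may not hold for them and was not measured. The 78 also include groups with all values equal, such as the young STD mice at the Dkk2 CpG, which could not be flagged. The mice concerned were 11 different ones, with young STD replicate 8 counted 3 times. Among the promoters, Dkk3 had 18.8% in young STD replicate 1 and 42.5% in aged STD replicate 8, Fzd2 had 8.0% in young STD replicate 8, 20.4% in aged STD replicate 8 and 16.4% in aged ENR replicate 6, and Fzd9 had −3.96% in aged STD replicate 2 and 30.7% in aged ENR replicate 3. The Wnt5b promoter had 48.1% in young STD replicate 2, and the Axin1 promoter 20.5% in aged ENR replicate 2. Each Fzd2 value came from a single CpG over 50% among 5 to 12 with a value. Aged STD replicate 2 was at 0% at all 24 Fzd9 promoter CpGs with a value, so its level below 0 came from the additive fit.

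Among the bodies, Fzd3 had 35.1% in aged STD replicate 5, over 5 CpGs with a value, and Fzd6 had 80.4% in aged ENR replicate 1. At single CpGs, the Wnt6 CpG was at 33.3% in young STD replicate 1, the Dkk2 CpG at 15.8% in aged ENR replicate 5, the Wnt3 CpG at 36.7% and the Fzd8 CpG at 38.5% in young STD replicate 8.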

How the results depend on the processing

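The counts of pathway promoters and bodies past the adjusted threshold stayed at 0 under all alternatives of the limma fit that were run. Under the unadjusted exact permutation test, 2 of 10 named bodies for aging and 1 for ENR had p under 0.05. As these bodies were named for a small p or a large difference, this count supports nothing. For single CpGs, the count of 0 became 1 for aging and 1 for ENR on the log2(percent + 1) scale (0.0134% and 0.0124% of all CpGs passed there), at the Dkk3 promoter CpG at chromosome 7, position 112158163, which was at 0% in all young STD and aged ENR mice with a value (3 and 5) and averaged 72.4% in 3 aged STD mice. The replicate block also gave 1 for each, at a Fzd2 promoter CpG, where the numbers pair no animals, and 0.105% and 0.0858% of all CpGs passed with it, so that 1 of 2472 pathway CpGs is not above the background. Same-numbered mice of different groups correlated by 0.000655 on average (−0.0524 to 0.0600 over 9590 regions), so no pairing was assumed. Leaving out 1 mouse gave 0 to 1 CpGs for aging and 0 to 1 for ENR, which were CpGs of Wnt8b (without young STD replicate 5), Dkk3 (without aged STD replicate 5), Fzd10 (without aged ENR replicate 6) and Axin1 (without aged ENR replicate 8). In Wnt8b, Dkk3 and Axin1, the group was then left with 2 mice at that CpG. Over all CpGs, 61 to 149 of 694379 passed in the fits concerned.

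Of the size counts, 192 for aging and 191 for ENR, only the minimum of 5 mice per group (30 and 19 of 767) and the threshold of 10 points (611 and 622) moved them by over 1.5 times. Leaving out each mouse gave 194 to 235 and 196 to 232. Differences of named regions were followed under the plain mean, centred mice, the replicate block and the outermost start, and with each mouse left out. Those of named CpGs were followed under the replicate block and with each mouse left out. In these fits the Axin1 promoter reversed with the plain mean (−7.08 for aging, 2.24 for ENR). The Wnt5b promoter reversed for ENR with the outermost start only (−1.44, chosen after seeing the data). The Fzd3 body reversed for ENR without aged STD replicate 5 (−1.37, with a range up to 10.6 points when other mice were left out). The cause was not tested. The smallest adjusted p (limma) of a named region difference in the fits followed here was 0.545. The reads behind a percentage are not known, so what depth limits could not be measured.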

Other observations

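The Dkk3 promoter CpG at chromosome 7, position 112158163 was named after its values were seen. In aged STD mice its 3 values were 56.2%, 61.1% and 100%, while the CpGs at positions 112158145 and 112158191 on either side were at 0% in all mice with a value. At position 112158163 itself, all 3 young STD and 5 aged ENR mice with a value were at 0%. Its adjusted p did not pass the threshold in the limma fit on the percent scale with all mice, and passed it on the log2 scale with 3 aged STD mice. It also passed without aged STD replicate 5 (58.6 points for aging), but then with only 2 aged STD mice, at 56.2% and 61.1%, fewer than the 3 otherwise required.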
